A study of Rattus norvegicus with 2 samples.

Results

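The last steps of protein digestion take place at the surface of the small intestine, and the transcripts of 8 genes of that process were followed through the jejunal epithelium of the rat. The genes were Anpep, Enpep, Dpp4, Mme, Lap3, Xpnpep1, Tmprss15 and Slc15a1, chosen by symbol from the 32883 genes of the count matrices, and each symbol had 1 row there. The data were single-cell RNA-seq libraries of the proximal jejunum from 2 male Sprague Dawley rats, aged 6 to 8 weeks, weighing 180 to 200 g and fasted overnight, with 1 library per rat and no treatment or genetic change. The comparisons were therefore between cell classes of the same epithelium, with n = 2 rats: crypt cells, enterocytes of rising maturity, and secretory cells, which included the CFTR high expresser cells (CHEs) that the study set out to describe. Levels are given as CPM, the UMIs (counted transcript molecules) of a gene per 1000000 UMIs summed over the cells of a class in a rat.

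Peptides that reach the jejunum are cut by enzymes anchored in the microvillus membrane of enterocytes and are then taken up as free amino acids or as di- and tripeptides. Anpep (aminopeptidase N) removes neutral amino acids from the N terminus, Enpep (aminopeptidase A) removes acidic ones, Dpp4 (dipeptidyl peptidase 4) releases dipeptides, and Mme (neprilysin) cuts within peptides. Tmprss15 (enteropeptidase) is the membrane serine protease that activates trypsinogen, and it is known mainly from the duodenum. Slc15a1 (PepT1) is the proton-coupled carrier of di- and tripeptides. Lap3 (leucine aminopeptidase) and Xpnpep1 (X-prolyl aminopeptidase) are cytosolic enzymes that finish small peptides inside the cell, so 6 of the 8 genes encode brush border proteins and 2 do not.

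Since the genes are used in the same cells, the stretch from 250 bases before to 50 bases after the annotated start of each was searched on both strands for short motifs of intestinal transcription factors. All 8 had an entry among 33469 RefSeq promoters of the assembly GRCr8, which is a later build than the Rnor6 build of the counts. The letters GTTAAT, part of the site of HNF1 factors, were in 2 of the 8 (Anpep, Tmprss15) and in 7.45% of all promoters. AGATAA, the site of GATA factors, was in 1 (Slc15a1) against 11.6%, TTTAT, the core of the CDX site, in 2 (Enpep, Tmprss15) against 42.5%, and CAAAGT, part of the HNF4 site, in none against 14.8%. The windows of 30 bases around these matches are shown 5′ to 3′ on the strand of the gene, which was the minus strand in each, with the matched letters in capitals (their reverse complement where the match was on the other strand). They show which letters of a promoter lie near the start of the gene, and a match is a description and not a bound site.
Anpep, HNF1 site, chr1:143195182-143195211: gcctgagcgctgGTTAATatttgaccaaag
Tmprss15, HNF1 site, chr11:31289175-31289204: attttcttaaagATTAACttctccttttaa
Slc15a1, GATA site, chr15:104949528-104949557: ctttcctgtgagTTATCTcacggaccacca
Enpep, CDX site, chr2:220526336-220526365: gcaagcgacctaATAAAatagtgaaattta
Tmprss15, CDX site, chr11:31289276-31289305: caattgtttttgTTTATgacatgcatttag

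Of 12033 barcodes of rat 1 and 8252 of rat 2, 5988 and 2230 passed the filters (over 5000 UMIs, at most 40% mitochondrial UMIs), with medians of 12200 and 13962 UMIs and of 13.1% and 19.6% mitochondrial UMIs. The libraries shared 28 barcodes, 4 of them among retained cells. Cells were clustered without the 8 genes, and the epithelium held 5776 and 1579 cells, of which 2.86% and 4.56% were in clusters left unnamed, led by enterocyte genes such as Apoa4 or by lymphocyte genes such as Ccl5, and entered no comparison. Enterocytes, 4084 in rat 1 and 1118 in rat 2, were ordered by the mean level of 10 villus genes and divided into early (1556 and 178 cells), mid (1431 and 303) and mature (1097 and 637), with the same cut-offs in both rats. These are ranges of a score and not cell types, and 12.5% of the enterocytes of rat 1 and 10.8% of rat 2 lay within 0.05 of a cut-off. The remaining classes were crypt cells (1127 and 41), cycling goblet-lineage cells (170 and 8), goblet/Paneth (123 and 28), goblet (50 and 106), enteroendocrine (EEC, 21 and 11), tuft (28 and 124) and CHE (8 and 71).

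Crypt and secretory clusters were named by thresholds on their marker genes, set after the clusters were seen. The levels below therefore describe the classes and are not an independent check of the names. Apoa4, summed below, is also a gene of the maturity score. The summed level of 4 enterocyte markers (Alpi, Apoa1, Apoa4, Fabp1) rose from 1787 CPM in crypt cells of rat 1 to 15360, 99960 and 171800 CPM in early, mid and mature enterocytes. In rat 2 the same sum was 1488, 16720, 53830 and 107200 CPM. CHEs held Cftr at 1639 CPM in rat 1 and at 2947 CPM in rat 2, with Best4 at 199 and 252 CPM, while Car7, also a CHE marker, was at 0. EECs held Chgb at 9334 and 32410 CPM. Crypt cells held the stem cell gene Olfm4 at 733 and 499.8 CPM, and those of rat 1 also Defa24, a Paneth cell defensin, at 1276 CPM (4.66 CPM in rat 2). The 41 crypt cells of rat 2 held goblet markers at 19090 CPM in sum, among them Agr2 at 8744 CPM, against 838 CPM in rat 1. The part of these transcripts in the comparisons with crypt cells was not tested. Immune cells were removed by cluster, yet Ptprc, their defining gene, had a UMI in 0.912% to 1.26% of the enterocytes of rat 1 and in 4.08% to 5.06% of those of rat 2. The sum of 6 immune markers (Ptprc, Cd3e, Cd3g, Ccl5, Nkg7, Cd74) rose with maturity, from 85.5 CPM in early to 978 and 2244 CPM in mid and mature cells of rat 1 and from 55.2 to 399 and 1020 CPM in rat 2. Ptprc, Cd3e and Cd3g did not carry this rise. Cd3g fell from 27.1 CPM in early to 3.14 CPM in mature cells of rat 1 and from 5.41 to 1.79 CPM in rat 2. Ptprc and Cd3e were at 2.855 CPM or less in all enterocyte ranges. An alternative given below removed the cells with a UMI of Ptprc, Cd3e or Cd3g. A Cd3g UMI was in 76.4% and 73.2% of crypt cells, whereas a Ptprc UMI was in 1.15% and 2.44% of them. That alternative therefore removed most crypt cells and is not a removal of immune cells alone. The part of Ccl5, Nkg7 and Cd74 in the results on maturity was not tested.

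All 8 genes had their highest level in an enterocyte class in both rats. Together they made up 0.0382% of the UMIs of crypt cells in rat 1 and 0.0342% in rat 2. This share was 0.192% and 0.336% in early, 0.672% and 0.584% in mid, and 0.884% and 0.689% in mature enterocytes. In the secretory classes other than CHE it lay between 0.0291% and 0.0711%. With every cell thinned to 5000 UMIs, the median mid enterocyte had a UMI of 7 of the 8 genes in both rats and the median crypt cell of 1.

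**Figure D1:**
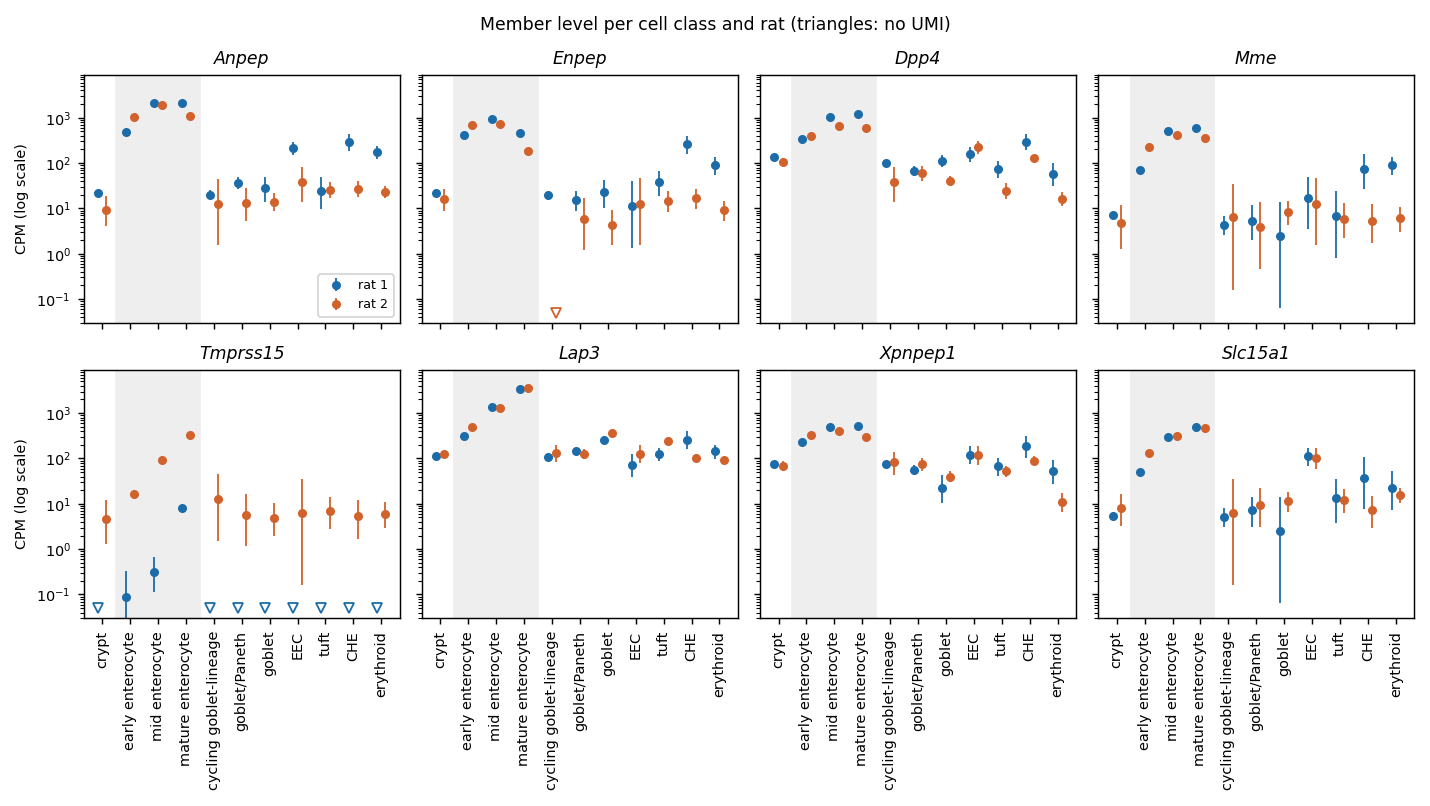
CPM (log scale) of each gene in 10 epithelial classes and in erythroid barcodes, with rat 1 in blue and rat 2 in orange, exact Poisson 95% counting intervals as bars, enterocyte classes shaded and triangles where no UMI was counted. The 3 shaded classes lie above the other epithelial classes in both rats for 6 genes, while EECs (Slc15a1) or CHEs (Mme) of rat 1 reach the early enterocytes of that rat.

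The first comparison asked which of the genes were already higher as cells left the crypt. Of the 8 genes, 7 were higher in early enterocytes than in crypt cells (edgeR quasi-likelihood test on UMIs summed per rat and class, Benjamini-Hochberg adjusted p under 0.05), with 18% of all 9264 genes tested called, 8.35% higher and 9.64% lower. The median log2 fold change was 4.38 over the 8 genes and -0.06 over all genes tested. Without TMM, the scaling between sums, the median of all genes moved by -0.39, and 28% of the calls over all genes were higher in early enterocytes, against 46.4% with it.

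Among the membrane peptidases, Anpep was at 21.7 CPM in crypt cells and 483 CPM in early enterocytes of rat 1, and at 9.32 and 1061 CPM in rat 2. This was a log2 fold change of 5.94 ± 1.06 (SE; edgeR adjusted p = 0.00295). Enpep rose from 21.5 to 416 CPM in rat 1 and from 16.3 to 701 CPM in rat 2, a log2 fold change of 5.25 ± 1.03 (edgeR adjusted p = 0.00452). For both aminopeptidases each rat's early enterocytes lay above the crypt cells of either rat. Mme rose from 7.16 to 69.5 CPM and from 4.66 to 225 CPM, a log2 fold change of 4.93 ± 0.82 (edgeR adjusted p = 0.00219). Erythroid barcodes, which should lack these genes, held Anpep at 174 and 23.5 CPM, Enpep at 89.4 and 9.28 CPM and Mme at 89.4 and 6.01 CPM. The crypt levels of the 3 genes lay below these, except for Enpep in rat 2. The crypt UMIs of these genes thus cannot be told from RNA of other cells, and the size of the fold changes rests on them. Dpp4 was already at 135 and 105 CPM in crypt cells, with a UMI in 78.9% and 80.5% of them, and reached 349 and 394.5 CPM in early enterocytes. Its log2 fold change of 2.02 ± 0.60 (edgeR adjusted p = 0.0301) was smaller and lost its call in 5 of 18 alternatives.

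UMIs of the cytosolic enzymes were also found in crypt cells. Erythroid barcodes held Lap3 at 143 and 91.7 CPM, in rat 1 above the crypt cells, and Xpnpep1 at 53.6 and 10.9 CPM. Lap3 was at 116 and 126 CPM there and at 315 and 485 CPM in early enterocytes, a log2 fold change of 2.15 ± 0.53 (edgeR adjusted p = 0.0128) that lost its call in 3 of 18 alternatives. Xpnpep1 went from 75.4 to 234 CPM in rat 1 and from 68.7 to 338 CPM in rat 2, a log2 fold change of 2.39 ± 0.45 (edgeR adjusted p = 0.00363). The transporter Slc15a1 was at 5.49 and 8.16 CPM in crypt cells, below the 22.3 and 15.3 CPM (5 and 28 UMIs) of erythroid barcodes, which should lack it. In early enterocytes it was at 50.4 and 135 CPM, a log2 fold change of 4.26 ± 0.64 (edgeR adjusted p = 0.00159).

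Tmprss15 was the gene without a call, with a log2 fold change of 4.50 ± 3.15 (edgeR adjusted p = 0.348). It had no UMI in crypt cells and 2 UMIs in early enterocytes of rat 1, and 4 and 92 UMIs in rat 2. With the rat as a block its adjusted p was 0.0196 at a log2 fold change of 2.38, and all 8 genes were then called, with 32.8% of all genes called. Its direction was reversed under 2 alternative settings.

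The second comparison followed the genes along the villus programme within enterocytes. Of the 8 genes, 4 (Lap3, Slc15a1, Mme and Dpp4) were higher in mature than in early enterocytes and none was lower, beside 11.6% of all genes called, 5.71% higher and 5.84% lower (edgeR, adjusted p under 0.05). With the rat as a block, Xpnpep1 and Tmprss15 were called as well, and 31.3% of all genes were called. Without TMM scaling 2 of the 8 genes were called, near the share over all genes (2191 of 9264). The median of all genes then moved by -0.69 on the log2 scale. Of the calls over all genes, 14.2% were higher in mature cells, against 49.4% with TMM. With ranges set in each rat, the division seen before the common cut-offs were chosen, 1 of the 8 genes (Lap3) was called and 175 of all genes in place of 1070.

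Lap3 was the gene with the steepest rise among those called. It was at 315, 1338 and 3494 CPM in early, mid and mature enterocytes of rat 1 and at 485, 1299 and 3550 CPM in rat 2, so that the classes did not overlap between rats. The log2 fold change of mature over early was 3.82 ± 0.57 (edgeR adjusted p = 0.0019), with 4.15 in rat 1 alone and 3.57 in rat 2 alone. Slc15a1 followed the same order, with 50.4, 290 and 499 CPM in rat 1 and 135, 309 and 471 CPM in rat 2. Its log2 fold change was 3.05 ± 0.58 (edgeR adjusted p = 0.00616). Lap3 and Slc15a1 were thus the genes whose mature levels were closest in the 2 rats, with ratios of rat 2 to rat 1 of 1.02 for Lap3 and 0.943 for Slc15a1.

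The endopeptidase Mme was at 69.5, 504 and 596 CPM in rat 1 and at 225, 428 and 356 CPM in rat 2. The log2 fold change of mature over early was 2.33 ± 0.70 (edgeR adjusted p = 0.0452). Dpp4 was at 349, 1050 and 1208 CPM in rat 1 and at 394.5, 650 and 604 CPM in rat 2, a log2 fold change of 1.95 ± 0.60 (edgeR adjusted p = 0.047). Both sat just inside the threshold, and each lost its call in 5 of 18 alternatives. For both, mid and mature enterocytes overlapped between the rats.

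The aminopeptidases Anpep and Enpep did not pass between early and mature cells. Anpep was at 483, 2098 and 2068 CPM in rat 1 and at 1061, 1921 and 1082 CPM in rat 2, with a log2 fold change of 1.67 ± 0.87 (edgeR adjusted p = 0.213). In CPM, which are not TMM-scaled, Anpep in mature cells of rat 2 was close to its level in early cells of the same rat. In rat 1 it was several times higher. With TMM scaling the log2 fold change of Anpep was 2.78 in rat 1 alone and 0.73 in rat 2 alone. Enpep was at 416, 940 and 451 CPM in rat 1 and at 701, 724 and 189.5 CPM in rat 2, with a log2 fold change of -0.17 ± 0.85 (edgeR adjusted p = 0.927). Between these ranges the rats went opposite ways for Enpep, with log2 fold changes of 0.80 in rat 1 and -1.18 in rat 2. The ranges were not filled alike when the score was cut into 10 steps, as given below. Steps 1 and 2 held 515 and 494 cells of rat 1 and 6 and 26 of rat 2. Step 10 held 184 and 337 cells. By step, Enpep was at 707 and 738.5 CPM in step 3, 584 and 368 CPM in step 8 and 57.6 and 59 CPM in step 10. The part of this filling in the differences between the rats was not tested. Xpnpep1 was at 234, 504 and 513 CPM in rat 1 and at 338, 414 and 300 CPM (299.8) in rat 2, a log2 fold change of 1.16 ± 0.43 (edgeR adjusted p = 0.0831, and 0.0303 with the rat as a block).

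Neighbouring ranges were compared in the same model. In mid against early enterocytes none of the 8 genes was called by edgeR, with 0.119% of all genes called (0.108% higher, 0.0108% lower) and 764 genes at an unadjusted p under 0.05. In mature against mid enterocytes again none was called, with 0.0324% of all genes called, all of them higher, and 700 at an unadjusted p under 0.05. With the rat as a block, Lap3, Tmprss15 and Slc15a1 were called in the first step (2.07% of all genes) and Lap3 and Tmprss15 in the second (2.59%). DESeq2 called 1 of the 8 genes in each step, beside 35 of 4878 genes in the first and 61 of 8892 in the second. Without TMM the median of all genes moved by -0.36 in the first step and -0.33 in the second.

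A finer division of the score into 10 steps, with the same cut-offs in both rats, showed that the genes did not reach their highest level together. These courses are a description, with no test, and the step with under 20 cells (the first of rat 2, with 6) was not used. Enpep peaked earliest, in step 5 of rat 1 at 992 CPM and in step 4 of rat 2 at 809 CPM. By step 10 it was at 57.6 and 59 CPM, which was 5.81% and 7.3% of the peak. The fall of the acidic aminopeptidase in CPM was therefore seen in both rats, although early and mature cells did not differ in the test.

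Anpep peaked in step 8 of rat 1 (2368 CPM) and step 6 of rat 2 (2023 CPM), and its last step was at 42.9% and 30% of the peak. Dpp4 peaked in step 8 of both rats, at 1313 and 796 CPM, and ended at 52.6% and 51.9% of that. Mme was highest in step 8 of rat 1 (669 CPM) and step 6 of rat 2 (472.5 CPM). In CPM these membrane peptidases shared a course that rose to the middle or upper villus programme and fell at its end. Xpnpep1 took the same course, with its peak in step 8 (571 CPM) and step 7 (459 CPM) and its last step at 47.3% and 37.2% of the peak. The steps were not TMM-scaled, and Apoa4 alone was at 62150 and 51070 CPM in step 10. Its part in these falls was not tested. With TMM, mature against mid cells of rat 2 gave log2 fold changes of 0.17 for Mme and 0.32 for Dpp4, both lower by CPM. Anpep had -0.40 and Xpnpep1 -0.04.

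Lap3 rose through every step used, to 5529 CPM in rat 1 and 4334 CPM in rat 2 in step 10. Slc15a1 was highest in step 9 of rat 1 (552 CPM) and step 10 of rat 2 (498 CPM). Tmprss15 was highest in step 10 of rat 1 (31.6 CPM) and step 9 of rat 2 (377 CPM). The 3 genes with the latest peaks were thus a cytosolic enzyme, the peptide carrier and the activating protease.

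**Figure D2:**
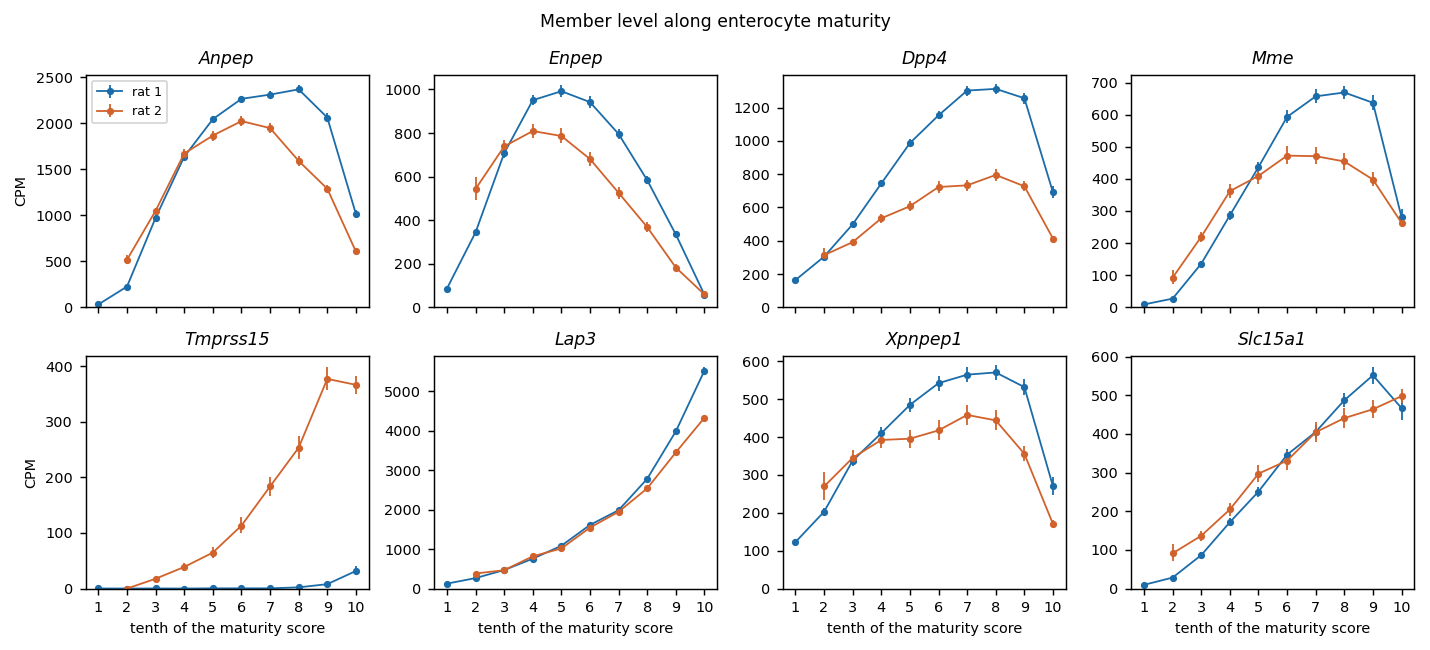
CPM (linear scale, from 0) of each gene in 10 steps of the maturity score, from least (1) to most mature (10), with rat 1 in blue, rat 2 in orange and exact Poisson 95% counting intervals as bars. Enpep falls to 5.81% and 7.3% of its peak by step 10, while Lap3 rises to 5529 and 4334 CPM.

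Mitochondrial UMIs moved with the score in opposite ways in the rats between the first and the last step used. Their median was 12.9% in step 1 and 8.91% in step 10 of rat 1, and 20.5% in step 2 and 28.5% in step 10 of rat 2. Within cells of at most 20% mitochondrial UMIs, the peaks of rat 1 stayed in the same steps for all 8 genes. Within cells of over 20%, those of rat 2 stayed in the same steps for 7 of the 8 genes, and Xpnpep1 moved from step 7 to step 8. In cells of rat 1 of over 20%, where step 10 had too few cells, Enpep and Slc15a1 kept their steps, Anpep and Xpnpep1 peaked in step 7 and Tmprss15 in step 8. Dpp4, Mme and Lap3 were there highest in step 9, the last one used. In rat 2 only 2 steps had 20 cells or more of at most 20%, so the courses could not be followed there.

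Tmprss15 stood apart from the other genes in how far the rats differed. Early, mid and mature enterocytes of rat 1 held 2, 6 and 109 UMIs, or 0.0895, 0.309 and 7.97 CPM. Those of rat 2 held 92, 785 and 4090 UMIs, or 16.6, 93.4 and 334 CPM. The ratio of rat 2 to rat 1 was 185 (exact 95% interval 49.9 to 1550) in early, 303 (138 to 827) in mid and 41.9 (34.6 to 51.1) in mature cells, where the intervals here and below cover counting error only. For the other 7 genes the ratio in mature cells lay between 0.42 and 1.02. In mature cells 5.83% of cells of rat 1 and 93.4% of rat 2 had a Tmprss15 UMI. With 1 library per rat, the difference has no replicate.

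Within each rat the gene followed maturity, with log2 fold changes of mature over early of 4.70 in rat 1 and 5.00 in rat 2. Without the block the same contrast gave 5.13 ± 2.24 (edgeR adjusted p = 0.138), and with the rat as a block 5.77 (adjusted p = 3.1e-06). The value of rat 1 rests on 2 UMIs in early cells and depends on the prior count of 2, so its size is not comparable with that of rat 2.

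Genes whose level depends on the position along the small intestine also differed between the rats. Onecut2, a transcription factor of the upper small intestine, was at 0.269, 0.0514 and 0.0731 CPM in early, mid and mature enterocytes of rat 1 and at 48.3, 40.7 and 37.1 CPM in rat 2. Fabp6, the bile acid-binding protein of the ileum, was at 1594, 1341 and 132 CPM in rat 1 and at 1.44, 0.714 and 0.0816 CPM in rat 2. Both libraries carry the same label of proximal jejunum, and in rat 1 these genes went the other way from rat 2.

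Not every such gene followed this split. Gata4, a factor of the proximal intestine, differed less, with ratios of rat 2 to rat 1 of 1.79, 2 and 1.4 in the 3 ranges. Lct (lactase) differed by ratios of 1.77, 1.04 and 1.12. Slc10a2, the ileal bile acid transporter, was at 1.84 CPM or less in all enterocyte ranges of both rats. The part of the sampled position, the Cell Ranger version or any other difference between the animals in the level of Tmprss15 was not tested, and version and rat cannot be told apart.

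**Figure D3:**
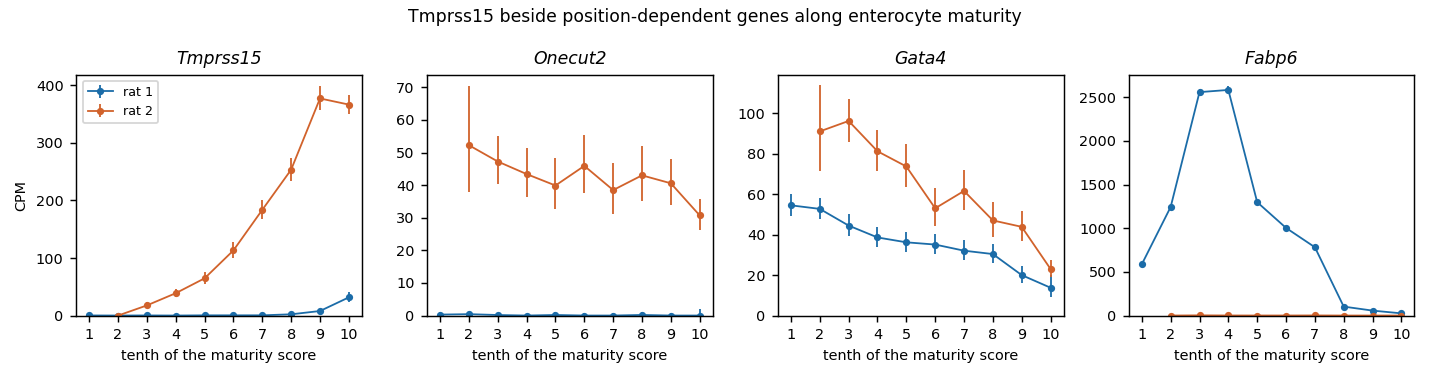
CPM (linear scale, from 0) of Tmprss15 and of 3 genes whose level depends on position along the intestine in 10 steps of the maturity score, with rat 1 in blue, rat 2 in orange and exact Poisson 95% counting intervals as bars. Tmprss15 reaches 377 CPM in rat 2 and 31.6 CPM in rat 1, Onecut2 is near 0 in rat 1, and Fabp6 is near 0 in rat 2.

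The third comparison set the secretory cells against the enterocytes, each class weighing the same. All 8 genes were lower in goblet/Paneth, goblet, EEC and tuft cells together than in the 3 enterocyte ranges (edgeR, adjusted p under 0.05), with 38.2% of all genes called, 24% lower, and with the rat as a block all 8 again, with 45.7% of all genes called. The median log2 fold change was -4.12 over the 8 genes and -0.08 over all genes tested. Without TMM scaling the median of all genes moved by 0.41, and 58.6% of the calls over all genes were higher in secretory cells, against 37.2% with TMM.

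The differences were widest for Mme, Enpep and Anpep. Mme had a log2 fold change of -5.84 ± 0.47, Enpep of -5.68 ± 0.57 and Anpep of -5.62 ± 0.54 (edgeR adjusted p of 2.5e-07, 1.5e-06 and 9.6e-07). Slc15a1 followed with -4.18 ± 0.34 and Dpp4 with -3.46 ± 0.33 (edgeR adjusted p of 2.6e-07 and 1e-06). The cytosolic enzymes differed least, with -3.29 ± 0.29 for Lap3 and -3.00 ± 0.24 for Xpnpep1 (edgeR adjusted p of 5.2e-07 and 2.7e-07). Tmprss15 had -4.07 ± 1.49 (edgeR adjusted p = 0.0408), which lost its call in 10 of 18 alternatives.

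**Figure D4:**
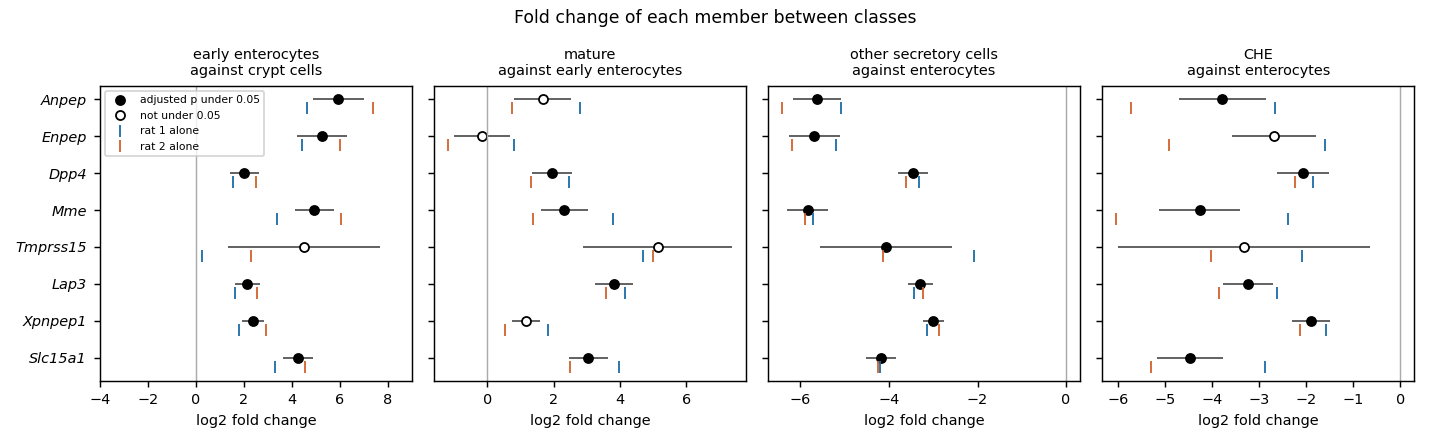
Log2 fold change of each gene in 4 comparisons, with the edgeR estimate and its SE as a circle and bar (filled where the adjusted p was under 0.05) and ticks for rat 1 (blue) and rat 2 (orange) alone. In other secretory cells all 8 circles are filled and lie to the left of 0, while in mature against early enterocytes Enpep has ticks on both sides of 0.

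The levels left in secretory cells were set beside those of erythroid barcodes, which should lack the genes and served as a measure of free RNA. They held the 8 genes at 630.1 CPM in sum in rat 1 (28 barcodes) and 179.1 CPM in rat 2 (243 barcodes). Goblet cells held 446 and 481 CPM, and tuft cells 350.2 and 389.7 CPM, below the erythroid sum in rat 1 and above it in rat 2. The erythroid barcodes of rat 1 also held the Paneth cell gene Defa24 at 85200 CPM, against 3.28 CPM in rat 2, so they carried more transcripts of other cells. In rat 1 the highest barcode for each gene held 176 of 268 Apoa4 UMIs, 543 of 945 Fabp1 UMIs and 17 of 39 Anpep UMIs. The sum of rat 1 thus rests largely on few barcodes and is a weak measure of free RNA. Lap3 made up much of the sum in goblet cells, at 254 and 356 CPM, against 143 and 91.7 CPM in erythroid barcodes. In tuft cells Lap3 was at 126 and 247 CPM, and in EECs at 72.2 and 128 CPM.

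EECs, the hormone cells of the epithelium, held some of the genes at higher levels than the other secretory cells pooled. Slc15a1 was at 111 CPM in EECs of rat 1 (20 UMIs in 10 of 21 cells, at most 6 in a cell) and at 103 CPM in rat 2 (16 UMIs in 7 of 11 cells, at most 5 in a cell). Over the other differentiated secretory classes, CHE included, it was at 8.5 and 10.3 CPM. The ratio was 13.1 (exact 95% interval 6.44 to 27) in rat 1 and 9.97 (5.21 to 18.2) in rat 2. Early enterocytes, at 50.4 and 135 CPM, lay below the EECs of rat 1, and in rat 2 were within the counting interval of the EECs (58.7 to 167 CPM).

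The share of cells with an Slc15a1 UMI was compared at equal depth. After thinning to 5000 UMIs it was 33.3% (Clopper-Pearson 95% interval 14.6% to 57%) of EECs in rat 1 and 54.5% (23.4% to 83.3%) in rat 2, against 14.3% and 7.41% of erythroid barcodes and 12.5% and 2.82% of CHEs. Without thinning the shares were 47.6% and 63.6% of EECs and 14.3% and 11.1% of erythroid barcodes, at median depths of 7931 and 12853 UMIs in EECs and 5460.5 and 7361 UMIs in erythroid barcodes. After thinning, the interval of erythroid barcodes was 4.03% to 32.7% in rat 1, which overlapped that of the EECs. In rat 2 it was 4.45% to 11.5%, below that of the EECs. Barcodes removed as immune, which also held enterocyte genes, had shares of 47.5% in rat 1, above the EECs, and 25.6% in rat 2.

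Dpp4, the enzyme that inactivates incretin hormones, was at 161 and 224.5 CPM in EECs, which was 1.83 (1.19 to 2.72) and 3.7 (2.51 to 5.29) times its level in the other secretory classes. Xpnpep1 was at 122 CPM in both rats, with ratios of 2.15 (1.29 to 3.43) and 2.03 (1.2 to 3.25). Anpep had a ratio of 4.97 (3.31 to 7.37) in rat 1 and of 1.89 (0.674 to 4.31) in rat 2, so the rats did not give the same picture for it. Lap3 went the other way, at 0.422 (0.222 to 0.732) and 0.545 (0.332 to 0.847) times the level in the other classes. These ratios are to the pooled UMIs of those classes, to which the 8 CHEs of rat 1 add little. CHEs of rat 1 lay above its EECs for Dpp4 (298 CPM), Xpnpep1 (186 CPM) and Anpep (286 CPM). Those of rat 2 lay below, at 128.5, 89.5 and 27.4 CPM. Without the CHE of rat 1 with the most Apoa4 UMIs, Xpnpep1 stayed above at 163 CPM, and Dpp4 (133 CPM) and Anpep (0) did not.

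Enterocyte reference genes differed in the same EECs. As a share of the mean enterocyte level, Apoa4 was at 1.91% in rat 1 and 1.74% in rat 2, Fabp1 at 3.26% and 1.71%, Lct at 3.84% and 4.2% and Alpi at 5.79% and 1.34%. Si (sucrase-isomaltase) was higher, at 15.1% and 12.9%. Slc15a1 was at 39.7% and 33.7%, Xpnpep1 at 29.3% and 34.8% and Dpp4 at 18.5% and 40.8% of the mean enterocyte level. With 32 EECs in all, no test of EECs against the other secretory classes was fitted, and these ratios are a description.

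CHEs were compared with enterocytes and with the other secretory cells. Of the 8 genes, 6 were lower in CHEs than in enterocytes and none was higher (edgeR, adjusted p under 0.05), with 15.7% of all genes called, 7.7% higher and 7.99% lower. With the rat as a block all 8 were lower, and 22.5% of all genes were called. The log2 fold changes ran from -4.47 ± 0.69 for Slc15a1 (edgeR adjusted p = 3.6e-04) to -1.90 ± 0.41 for Xpnpep1 (edgeR adjusted p = 0.00508). Enpep had -2.69 ± 0.89 (edgeR adjusted p = 0.0525, and 0.00265 with the rat as a block). Tmprss15 had -3.32 ± 2.67 (edgeR adjusted p = 0.479, and 5.2e-04 with the block). Without TMM scaling the median of all genes moved by 0.23, and 63.4% of the calls over all genes were higher in CHEs, against 49.1% with TMM.

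The CHEs of the rats differed in level, with 8 cells in rat 1 and 71 in rat 2. Anpep was at 286 and 27.4 CPM, Enpep at 261 and 16.9 CPM, and Mme at 74.5 and 5.27 CPM. Dpp4 was at 298 and 128.5 CPM and Xpnpep1 at 186 and 89.5 CPM. In rat 1, 1 of the 8 cells, with 13007 UMIs, held 86 of their 120 Apoa4 UMIs.

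That cell held all 23 Anpep UMIs of the class, 15 of 21 for Enpep, 15 of 24 for Dpp4 and 5 of 6 for Mme. Over the other 7 cells Anpep was at 0, which allows up to 44.4 CPM, Enpep at 88.9 CPM, Mme at 14.8 CPM, Dpp4 at 133 CPM and Xpnpep1 at 163 CPM. Dpp4 and Xpnpep1 of rat 1 then lay nearer to their levels in rat 2. Without the cell, 7 of the 8 genes were lower in CHEs than in enterocytes, and Enpep had a log2 fold change of -4.25 ± 0.86 (edgeR adjusted p = 0.00285). Over all genes, 1513 of 9249 were then called in either direction.

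Against the other secretory cells, 1 of the 8 genes, Enpep, was higher in CHEs, with a log2 fold change of 2.99 ± 0.81 (edgeR adjusted p = 0.029), beside 8.81% of all genes called, 7.24% higher and 1.57% lower. Without the cell described above it was 1.43 ± 0.78 (edgeR adjusted p = 0.31), and no gene of the 8 was called, beside 774 of 9249 genes over all genes. Without TMM the median of all genes moved by -0.19. With the rat as a block, 3 were called (Enpep, Dpp4 and Xpnpep1, with 12.9% of all genes called), Dpp4 at a log2 fold change of 1.41 (adjusted p = 0.00902). Slc15a1 had -0.29 ± 0.67 (edgeR adjusted p = 0.908), and its level in CHEs of rat 2, at 7.37 CPM, was below that of erythroid barcodes. In rat 1 it was above, at 37.3 against 22.3 CPM, on 3 UMIs. Without the cell described above, Slc15a1 in CHEs of rat 1 was at 14.8 CPM on 1 UMI, also below the erythroid barcodes.

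Crypt cells and cycling goblet-lineage cells resembled each other in rat 1, where cells of both were numerous. Dpp4 was at 135 and 98.9 CPM, Lap3 at 116 and 105 CPM and Xpnpep1 at 75.4 and 77.3 CPM. Anpep was at 21.7 and 20 CPM and Enpep at 21.5 and 19.8 CPM. In both classes of rat 1, Dpp4, Lap3 and Xpnpep1 were the genes with a UMI in most cells. In rat 2 the cycling class had 8 cells and gives no usable order.

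Other genes of peptide digestion were taken from 4 lists. Of 15 further membrane peptidases, 11 could be tested between mature and early enterocytes. Of these 6 were higher and none lower, beside 5.71% and 5.84% of all genes. Their median log2 fold change was 2.26, against -0.01 over all genes. Ggt1 (gamma-glutamyltransferase) was at 3.85 CPM in early and 325 CPM in mature cells of rat 1 and at 7.76 and 470 CPM in rat 2, a log2 fold change of 6.82 ± 0.67 (edgeR adjusted p = 1.7e-04). Ace (angiotensin-converting enzyme), which removes dipeptides from the C terminus, had 4.64 ± 0.83 (edgeR adjusted p = 0.00534).

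Mep1a (meprin alpha), a secreted and membrane-bound metalloprotease, had 2.69 ± 0.73 (edgeR adjusted p = 0.0295). Mep1b and Cpm were also among those higher. In early enterocytes against crypt cells, 5 of the 11 were higher, among them Dpep1, Mep1a, Mep1b and Xpnpep2, and none lower. Over all genes 8.35% were higher and 9.64% lower.

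Intracellular peptidases formed a further list. Of 20 listed, 18 could be tested between mature and early enterocytes, none was higher and 2 were lower, with a median log2 fold change of 0.07. These counts are near the shares over all genes (5.71% higher and 5.84% lower). The 2 were the cytosolic oligopeptidases Thop1, at -3.93 ± 1.02 (edgeR adjusted p = 0.0286), and Prep, at -1.98 ± 0.51 (edgeR adjusted p = 0.0262). Thop1 was at 7.25 CPM in early and 0.365 CPM in mature cells of rat 1 and at 2.53 and 0 CPM in rat 2. In early enterocytes against crypt cells 2 of the 18 were higher (Cndp2, Ctsc) and 1, Thop1, was lower, beside 8.35% and 9.64% of all genes.

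Of 15 transporters of peptides and amino acids, 12 could be tested. In mature against early enterocytes 2 were higher and none lower, beside 5.71% and 5.84% of all genes, with a median of 1.04. Slc6a19, the carrier of neutral amino acids, went from 27.8 to 404 CPM in rat 1 and from 107 to 312 CPM in rat 2, a log2 fold change of 3.05 ± 0.64 (edgeR adjusted p = 0.0107). The other was Slc3a1, a subunit of the carrier of cystine and basic amino acids. In early enterocytes against crypt cells, 7 of the 12 were higher and none lower, beside 8.35% and 9.64% of all genes. Of 5 other brush border hydrolases (Alpi, Lct, Mgam, Si, Treh), all were higher in early enterocytes than in crypt cells. In mature against early enterocytes 1 of these, Lct, was higher, beside 5.71% of all genes.

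In secretory cells, 9 of the 11 membrane peptidases, 9 of the 12 transporters and 8 of the 18 intracellular peptidases were lower than in enterocytes, beside 24% of all genes. Cpd (carboxypeptidase D), a processing enzyme of the trans-Golgi network, was the membrane peptidase that was higher, and the lysosomal Dpp7 the intracellular one. In CHEs, 3 membrane peptidases (Dpep1 and Mep1a among them), 3 intracellular peptidases (Cndp1, Cndp2, Npepl1), 6 transporters and 4 of the 5 hydrolases were lower than in enterocytes, beside 7.99% of all genes, with Dpp7 and the lysosomal carrier Slc15a4 higher. Ggt1, Ace, Slc6a19, Mep1a, Thop1 and Prep were named by a rule of size and direction, and the remaining genes of the lists after their values were seen.

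For each of the 8 genes, the gene with the most similar levels over the classes was sought. The measure was Pearson's r of log2(CPM + 1) over the 10 classes of a rat, taken as the lower of the 2 rats among 4056 genes, and it is a description, since all points of a rat share a library and most of r comes from enterocytes against the rest. Slc15a1 was most like Slc6a19 (r = 0.987 in rat 1 and 0.972 in rat 2), Enpep like Cyp4f1 (0.974 and 0.975), Anpep like Dnase1 (0.96 and 0.982) and Mme like Apoc3 (0.971 and 0.976). Lap3 was most like Apoa4 (0.951 and 0.975), Xpnpep1 like Fth1 (0.956 and 0.97) and Dpp4 like Agmo (0.942 and 0.932). Apoa4 and Apoc3 are among the genes of the maturity score. Tmprss15 had the lowest likeness to any gene, with r of 0.812 and 0.813 for Ggt1, which was also the membrane peptidase with the largest change between early and mature enterocytes.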

How the data were processed

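For each library the authors deposited raw counts of UMIs by gene and barcode, which were made with Cell Ranger against Rnor6. The file headers give version 3.1.0 for rat 1 and 5.0.1 for rat 2. The counts were not normalized. Retained cells had over 5000 UMIs, 200 to 5800 genes (limits left out) and at most 40% mitochondrial UMIs. They were integrated and clustered in R 4.3.3 by Seurat 5.3.0 (2000 variable genes without the 8 genes and the listed genes, 20 principal components, resolutions of 0.3 and 0.5). Clusters were removed as immune where Ptprc was detected in over 25% of the cells and as erythroid by hemoglobin transcripts, and cells of the other clusters with at most 10 UMIs of Epcam and 4 keratin genes were left out. Doublets called by Scrublet (scanpy 1.11.5; 1.94% and 0.224% of cells, a share in rat 2 at which the caller cannot be relied on) were kept in the main setting. Class names were rebuilt here and may differ from those of the study.

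UMIs were summed per rat and class into 20 sums and fitted in 1 model with edgeR 4.0.16 (TMM, filterByExpr, quasi-likelihood test, Benjamini-Hochberg adjustment at 0.05). The test gives no SE, so the SE printed is the absolute log2 fold change divided by the square root of the F statistic. Values for 1 rat alone are differences of TMM-scaled log2 CPM (prior count 2) with no test. The levels given in CPM are not TMM-scaled, so they can differ from the fold changes in size and sign. The numbers of the rats pair the sums, since classes come from the same animal: correlations of deviations from the class means over 45 pairs of classes ran from 0.0451 to 0.747, with 41 over 0.1. The block on rat is therefore given where it changes a call. The test was checked on simulated counts. Cut-offs of the maturity ranges common to both rats were chosen after ranges set within each rat had been seen. Alternatives included DESeq2 1.42.0, no filter on low counts and other cell filters. The genes and lists were chosen with earlier results of these data known. Named genes of the lists were the 5 highest and 5 lowest log2 fold changes of mature against early enterocytes among those called with the same direction in both rats, and 3 most alike genes were sought for each of the 8 genes, of which the first is given. The values of 1 listed gene are not reported here.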

Additional observations from a re-analysis of the deposited data

Results flagged for a closer look

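Barcodes that entered no comparison also held the 8 genes. Barcodes removed as immune held a sum of 4540 CPM (rat 1) and 2721 CPM (rat 2). In rat 1 this lay between early (1916 CPM) and mid enterocytes (6725 CPM), and in rat 2 below early ones (3356 CPM). In these barcodes of rat 1 the level of the 8 genes ran from 30.3% (Tmprss15) to 86.3% (Dpp4) of the mean enterocyte level, and the enterocyte genes Fabp1 and Apoa4 were at 71.8% and 58.1%. Erythroid barcodes held 630.1 CPM in rat 1 and 179.1 CPM in rat 2. Barcodes with at most 5000 UMIs held 1830 CPM in rat 1 (5816 barcodes) and 1190 CPM in rat 2 (4439 barcodes). Barcodes over 5000 UMIs with over 40% mitochondrial UMIs held 2910 CPM in rat 1 (182 barcodes) and 2710 CPM in rat 2 (1510 barcodes). In these last barcodes Tmprss15 was at 1.69 and 121 CPM, so the difference between the rats was also present among the cells left out.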

How the results depend on the processing

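Across 18 alternatives, the genes called among the 8 ranged from 5 to 8 for early enterocytes against crypt cells, 5 to 8 for CHEs against enterocytes and 7 to 8 for other secretory cells against enterocytes. Mature against early enterocytes (4 genes) gave 7 with only the lowest and highest of 5 equal parts of the score, 7 with at most 20% mitochondrial UMIs, which leaves few enterocytes of rat 2, 2 without TMM, 2 with cells without epithelial transcripts kept and 1 with ranges set in each rat. In the same order, these settings called 2660 of 9189, 989 of 9004, 2191 of 9264, 1049 of 9577 and 175 of 9277 genes over all genes. Lap3 kept its call in 18 of 18 alternatives and Slc15a1 in 17. Mid against early enterocytes (0 genes) gave 3 with the 5 parts, 1 with at most 20% mitochondrial UMIs, 1 without integration, 1 with DESeq2, 2 without a filter on low counts and 3 with the replicate block. Over all genes these called 126 of 9189, 9 of 9004, 47 of 9283, 35 of 4878, 221 of 17256 and 192 of 9264. Mature against mid enterocytes (0 genes) gave 1 with DESeq2, 1 without the filter, 2 with the block and 1 with the block and ranges set in each rat. Over all genes these called 61 of 8892, 246 of 17256, 240 of 9264 and 64 of 9277. CHEs against other secretory cells (1 gene) gave 0 with at most 20% mitochondrial UMIs, at resolution 1.0, without integration, with the members and listed genes kept as variable genes, with ranges set in each rat and without the CHE of rat 1 richest in Apoa4. It gave 2 without the filter, with cells holding a UMI of Ptprc, Cd3e or Cd3g removed and with the block and ranges set in each rat, and 3 with the block. In the same order, these 4 settings called 1137 of 17256, 767 of 8839, 976 of 9277 and 1196 of 9264 genes over all genes. Enpep in mature against early enterocytes was reversed to 0.12 with a score without apolipoproteins and to 0.55 with at most 20% mitochondrial UMIs, and Tmprss15 in early enterocytes against crypt cells to -1.31 with the 5 parts and -0.55 with at most 20% mitochondrial UMIs, none of them called. The causes were not tested. Over all genes, calls ran from 175 (ranges set in each rat) to 2902 (block) around 1070 for mature against early, from 0 to 221 around 11 and from 0 to 246 around 3 for the single steps (highest without the filter), from 448 (at most 20% mitochondrial UMIs) to 3040 (block) around 1667 for early against crypt, and stayed within 1.5 times for the comparisons of secretory cells. Keeping cells without epithelial transcripts, leaving out cells of over 30% mitochondrial UMIs, ranges set in each rat and leaving out the CHE were chosen after seeing the data. With 1 rat left out no test is possible, and for Enpep in mature against early enterocytes the values of the single rats ran from -1.18 to 0.80. Rare classes (8 CHEs of rat 1, 41 crypt cells and 11 EECs of rat 2) limit the levels given for them.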
